A study of Mus musculus with 12 samples.

Results

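Glucose is carried to carbon dioxide by a short series of enzymes, and 45 genes of that route were followed here in adult mouse hearts: glucose uptake (2 genes), glycolysis (15), lactate dehydrogenase (2), pyruvate import and oxidation with its kinases (9), the TCA cycle (12), the malate-aspartate shuttle (4) and glycogen synthase (1). The genes were chosen by name from this pathway knowledge, with earlier results of these data known. They were matched to the GENCODE M21 annotation (mouse build GRCm38). All 45 were found among the 55401 genes of the count files, and all are annotated as protein-coding. The hearts were wild type (WT) or carried a homozygous loss of Rpl3l, the striated-muscle paralogue of the ribosomal protein gene Rpl3, written Rpl3l-/- in the labels and KO below. Each genotype was measured in 2 fractions with 3 libraries a group, 12 libraries in all, and the series' design names the replicates as biological triplicates. Input is total RNA taken from heart homogenates with TRIzol. IP is RNA bound to ribosomes that were captured with an anti-HA antibody, from hearts that met cycloheximide, which stalls ribosomes, at excision, and it was purified on RNeasy columns. Both fractions were enriched for poly(A) RNA and sequenced as nanopore direct cDNA. The labels call the source adult heart with no exact age, and name neither the HA-tagged allele nor the cells that carry it. They also do not say which Input and IP libraries, if any, were made from the same heart. Purification and cycloheximide change with the fraction, so their part in a difference between IP and Input cannot be told apart from ribosome binding.

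Glycolysis turns glucose into pyruvate in the cytosol. The mitochondrial pyruvate carrier brings pyruvate into mitochondria, where the pyruvate dehydrogenase complex turns it into acetyl-CoA, and pyruvate dehydrogenase kinases switch that complex off. The TCA cycle burns acetyl-CoA, and the malate-aspartate shuttle moves the reducing equivalents of glycolysis into mitochondria. The adult heart runs mostly on fatty acids and also takes up lactate, and it uses muscle forms of several glycolytic enzymes (Pfkm, Pgam2, Eno3) and the heart form of lactate dehydrogenase (Ldhb).

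Libraries held 169359 to 710868 counts, the lowest in KO Input 3. A floor of 3 counts equals 4.22 CPM (counts scaled to equal library size) in the deepest library and 17.7 CPM in the shallowest. Levels below are CPM scaled by TMM, a factor per library that makes most genes equal between libraries. The values of a group are given for replicates 1, 2 and 3, an order that was not taken to pair libraries. Rpl3l read 222 to 308 CPM in WT Input and 26.96 to 68.5 CPM in KO Input, and 269 to 275 CPM in WT IP against 2.33 to 8.31 CPM in KO IP, so all 6 libraries labelled KO lay below all WT libraries. Rpl3 itself read 219 to 252 CPM in WT Input and 443 to 503 CPM in KO Input. Summed levels of 8 cardiomyocyte markers overlapped between the 4 groups (45237 to 55098 CPM), although 1 of them, Actc1, was listed at 0 in all 12 libraries. In bulk heart RNA, fewer cells of a type and less RNA per cell cannot be told apart.

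The 45 genes took 2.74 ± 0.307% (SD, n = 3) of the counts in WT Input, 2.66 ± 0.0441% in KO Input, 3.38 ± 0.230% in WT IP and 3.74 ± 0.148% in KO IP. All 6 IP libraries (3.12 to 3.89%) lay above all 6 Input libraries (2.43 to 3.04%), and within Input the KO libraries (2.61 to 2.70%) lay inside the range of the WT libraries. Within IP the KO libraries (3.60 to 3.89%) lay above the WT libraries (3.12 to 3.54%). Counts of 4 globin genes varied from 1.70 to 17.2% of a library, and with them left out the shares were 2.94 ± 0.141%, 2.75 ± 0.0165%, 3.70 ± 0.0692% and 3.89 ± 0.0686% in the same order of groups. On that measure all KO Input libraries (2.73 to 2.76%) lay below all WT Input libraries (2.82 to 3.10%), and all KO IP libraries (3.83 to 3.96%) above all WT IP libraries (3.63 to 3.76%).

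Of the 45 genes, 43 had a count in every library and the same 43 passed the filter on low counts. Slc2a1, the widespread glucose transporter, had 5 counts in all 12 libraries together, in WT Input 2, KO Input 2 and KO IP 2. Mpc1, a subunit of the pyruvate carrier, had 57 counts. These 2 genes were not tested at their own loci. Per kilobase of the longest annotated transcript, and with counts at each gene's own locus only, the top levels in WT Input were Gapdh (1364 CPM per kb), Ldhb (1333), Pgam2 (1316), Mdh1 (1311) and Mdh2 (1066). In WT IP they were Mdh1 (1886 CPM per kb), Aldoa (1705), Ldhb (1614), Mdh2 (1239) and Pgam2 (1173). The place of Gapdh depends on how reads were assigned: with the near copies described below added, it read 2499.8 CPM per kb in WT Input and 1985 in WT IP, above Mdh1 in both. Among tested genes the lowest per-kilobase level in WT Input was that of Pfkp (7.15 CPM per kb). Whether counts of these nanopore cDNA libraries rise with transcript length was not tested, so the order without that division follows. In CPM at the own locus, not divided by length, the top levels in WT Input were Mdh1 (2782 CPM), Gapdh (1937), Ldhb (1739), Idh2 (1700) and Mdh2 (1552). In WT IP they were Mdh1 (4002 CPM), Aldoa (2641), Ldhb (2104), Idh2 (2007) and Mdh2 (1803). Pgam2 ranked 9 in WT Input and 13 in WT IP, and Pgam1 was the lowest tested gene in WT Input (28.2 CPM). With copies added, Gapdh (3550 and 2818 CPM) was above Mdh1 in WT Input only.

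**Figure D1:**
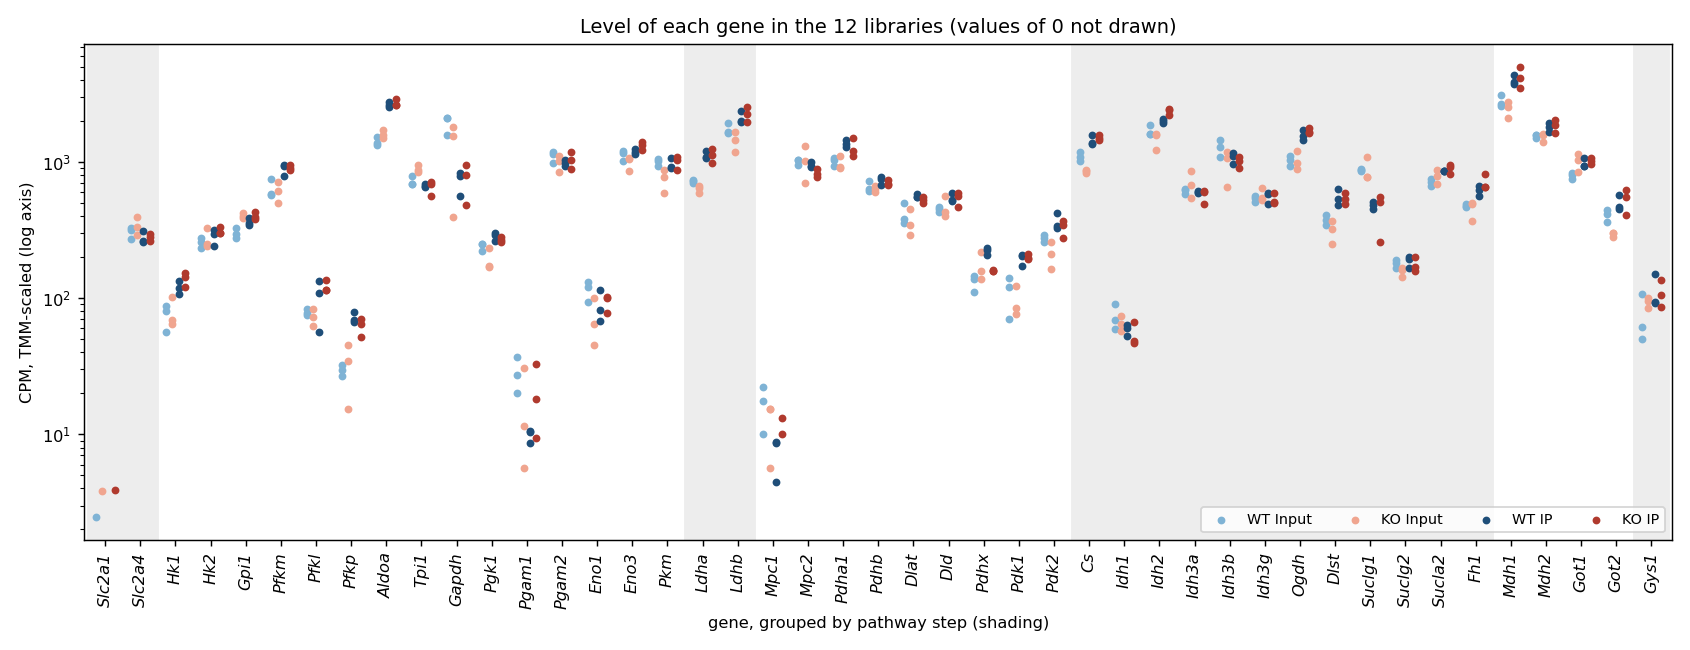
Level of each of the 45 genes (CPM scaled by TMM, log axis) in each of the 12 libraries, 1 point a library, coloured by group and ordered by pathway step. Aldoa, Ldha, Cs, Ogdh and Mdh1 stand higher in the IP libraries of both genotypes, Gapdh and Suclg1 stand lower in the WT IP libraries, and Slc2a1 has points in 3 libraries.

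Some of these genes have near-identical copies elsewhere in the genome, and the sources used here do not give the rule by which reads were assigned to loci. A search of annotated transcripts found 42 counted copies of 7 members, at 95% identity or more over at least 50% of the copy. For Mpc1, Gapdh, Pgk1 and Got2 the copies held a large part of the counts. The stretches below show how alike such loci can be: each is 60 bases of coding sequence, 5′ to 3′ on the coding strand of the member, from the GENCODE M21 transcripts on GRCm38, with capitals at the bases that differ between member and copy. Mpc1 lies at chr17:8282904-8297661 and its processed pseudogene Mpc1-ps at chr12:110858565-110858894. Gapdh lies at chr6:125161715-125166467 and Gm10358, which GENCODE lists as protein-coding, at chr8:75405340-75406589. Got2 lies at chr8:95864134-95888547, and Gm10874, a lincRNA gene at chr5:138363719-138388287, matches it in the opposite orientation. The alignment of Gapdh and Gm10358 differs at 7 of 1002 coding positions, 3 of them in the stretch shown. Got2 and Gm10874 are less alike than their stretch: the coding sequence of Got2 differs from it at 114 of 1301 aligned positions, gaps included (91.2% identity), and the 98.8% identity that met the search rule covers 69.5% of the transcript of Gm10874. Pgk1 lies at chrX:106187100-106203699 and the processed pseudogene Gm5537 at chr3:58102996-58104247, with no difference in 1252 aligned bases.
Mpc1: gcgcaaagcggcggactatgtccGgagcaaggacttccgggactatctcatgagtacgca
Mpc1-ps: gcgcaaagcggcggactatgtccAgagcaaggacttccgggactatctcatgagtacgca
Gapdh: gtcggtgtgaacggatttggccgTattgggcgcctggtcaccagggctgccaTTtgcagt
Gm10358: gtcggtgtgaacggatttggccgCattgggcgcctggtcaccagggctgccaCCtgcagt
Got2: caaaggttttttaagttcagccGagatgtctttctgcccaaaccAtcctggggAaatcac
Gm10874: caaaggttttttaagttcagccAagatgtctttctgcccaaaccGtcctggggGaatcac
Pgk1 and Gm5537: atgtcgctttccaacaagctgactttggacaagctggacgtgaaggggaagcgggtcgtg

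Mpc1 and Mpc1-ps differ at 1 of 330 coding bases, and 2987 counts lay at the pseudogene against 57 at Mpc1 itself. Summed over both and 1 small copy, the level was 433, 619 and 554 CPM in WT Input, 761, 519.7 and 602 CPM in KO Input, 680.0, 559 and 615 CPM in WT IP and 464, 558 and 541 CPM in KO IP. All KO IP libraries lay below all WT IP libraries, with 558 against 559 CPM at the nearest pair, and the groups overlapped in the other comparisons. The summed gene could be tested and passed in no comparison, with log2 fold changes of 0.21 (IP over Input, WT), -0.27 (IP over Input, KO), 0.23 (KO over WT, Input) and -0.24 (KO over WT, IP).

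Gapdh, the dehydrogenase of glycolysis, had 5874 counts at its own locus and 10285 at 33 copies, of which Gm10358 held 6650 and Gm3839 held 2180. The locus of Gapdh took 55.1% of the sum in WT Input, 44.3% in KO Input, 25.8% in WT IP and 29.0% in KO IP, and 20.2% in KO Input 3 against 50.2 and 47.7% in the other two KO Input libraries. Pgk1, the first ATP-forming enzyme of glycolysis, had 1406 counts beside 893 at Gm5537 and 334 at Pgk1-rs7. Gm5537 was at 0 in WT Input 1, KO Input 1 and KO Input 2 and held 28 to 150 counts in the other 9 libraries. Got2, the mitochondrial aspartate aminotransferase, had 2547 counts beside 1845 at Gm10874. That copy was at 0 in WT Input 1, WT Input 2 and KO Input 2 and held 73 to 320 counts in the other 9 libraries. The share of reads given to a locus varied between libraries of 1 group for these genes, and their values are given below at the locus and with copies added.

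**Figure D2:**
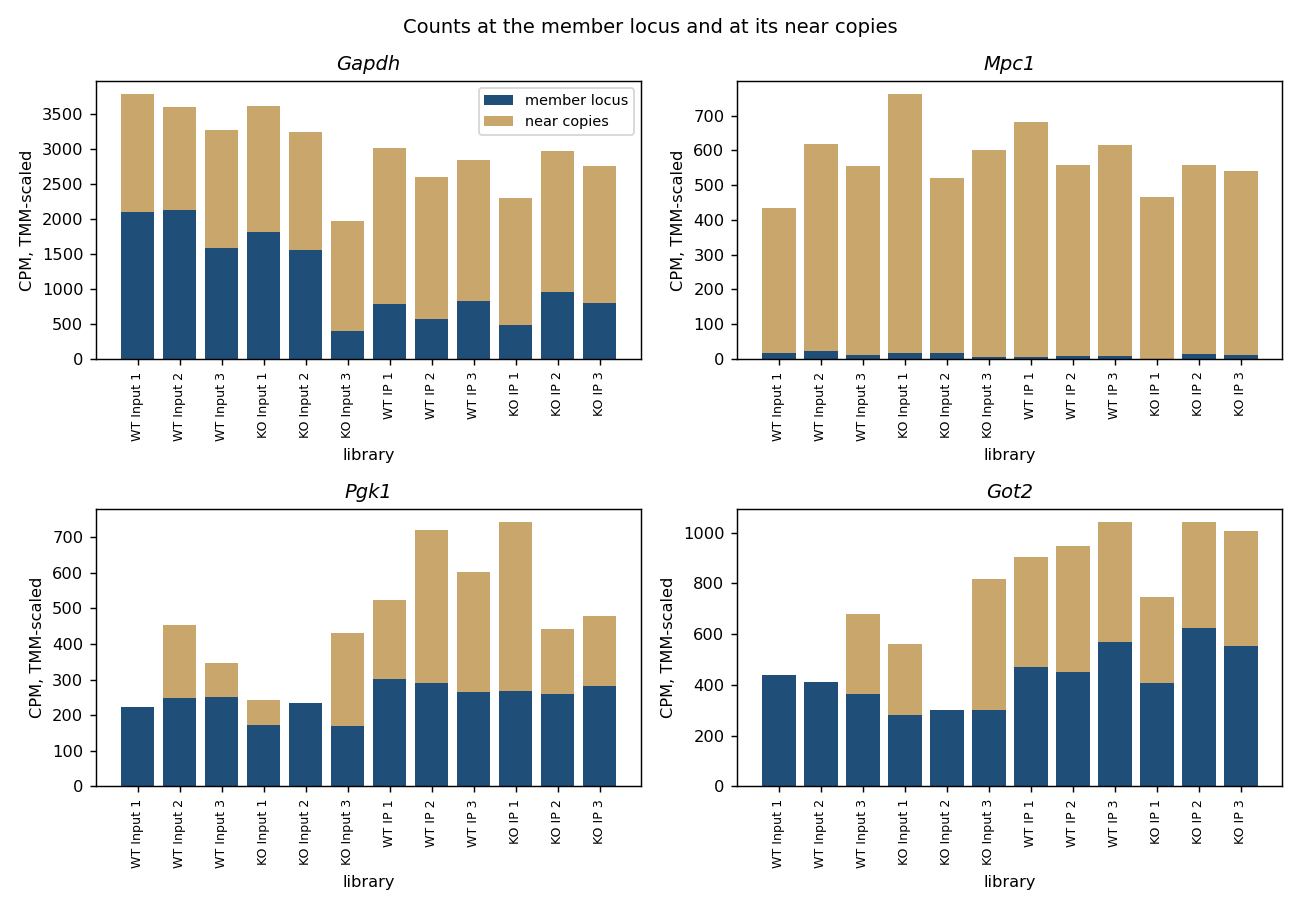
Level (CPM scaled by TMM) of Gapdh, Mpc1, Pgk1 and Got2 in each of the 12 libraries, with the counts at the member's own locus in blue and those of its near copies stacked in tan. The Gapdh locus holds 55.1% of its sum in WT Input and 25.8% in WT IP, nearly all Mpc1 counts lie at its pseudogene, and the copies of Got2 and Pgk1 are missing from some Input libraries.

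IP was compared with Input within each genotype to ask which messages were over- or under-represented on the captured ribosomes. In WT hearts 10 of the 43 tested genes were higher in IP and 2 were lower, and in KO hearts 16 were higher and 2 were lower (edgeR's quasi-likelihood test, Benjamini-Hochberg adjusted p under 0.05, which is what passing the test means below). Over all 6596 genes tested, 5.37% were higher and 8.67% lower in WT, and 6.64% were higher and 9.78% lower in KO (14.0% and 16.4% in either direction). The list was chosen with earlier results of these data known, so its counts are not those of a list fixed in advance. The median log2 fold change of the 43 genes was 0.27 in WT and 0.36 in KO, against 0.02 and 0.01 for all genes tested. Scaled by library totals instead of TMM, the medians were 0.36 and 0.51 against 0.10 and 0.15 for all genes. In WT 24 of the 43 genes had all IP libraries above all Input libraries and 3 had them below (16.4% and 18.2% of all genes), and in KO 22 and 2 (15.2% and 15.6%). The 43 genes are abundant: among genes with at least 30 counts in at least 3 libraries, 24.3% passed in WT and 27% in KO in either direction, with 12 and 19 of the 42 members that such a filter keeps.

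Both genotypes called 9 genes higher (Hk1, Pfkm, Pfkp, Aldoa, Ldha, Pdk1, Ogdh, Dlst and Mdh1) and 1 lower (Suclg1), which is 83.3% of the WT list and 55.6% of the KO list. The same overlap was not counted over all genes tested. These 2 comparisons share no library, but both come from 1 fit over all 12 libraries with a common estimate of spread. The change of purification and cycloheximide between fractions is also the same in both. A gene that passed in 1 genotype only is not shown to differ between them: the test of that difference passed for none of the 43 genes, as described further down.

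**Figure D3:**
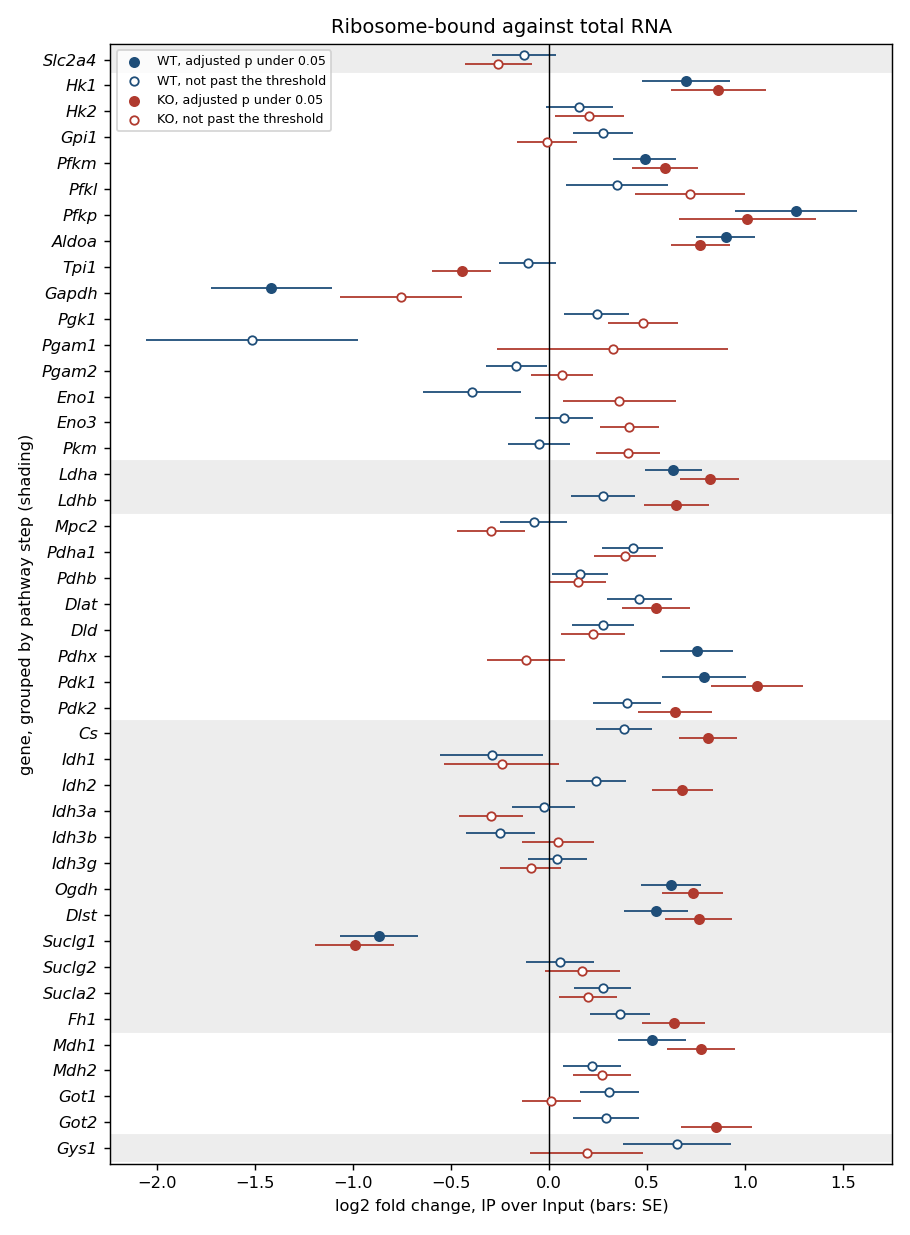
Log2 fold change of IP over Input for the 43 tested genes in WT (blue) and KO (red), with bars of 1 SE and filled points where the adjusted p is under 0.05. Most points lie right of 0, Aldoa, Ldha, Pdk1, Ogdh and Mdh1 are filled in both genotypes, and Suclg1 is filled left of 0 in both.

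In glycolysis 4 of 15 genes were higher and 1 was lower in each genotype. Aldoa, the aldolase that splits fructose 1,6-bisphosphate (chr7:126795234-126800751), read 1336, 1383 and 1528 CPM in WT Input and 2773, 2619 and 2530 CPM in WT IP. In KO it read 1497, 1579 and 1710 CPM in Input and 2922, 2615 and 2626 CPM in IP. IP lay above Input in every library, with log2 fold changes of 0.90 (SE 0.15, adjusted p = 0.000135) in WT and 0.77 (SE 0.15, adjusted p = 0.000754) in KO, and the call held under all 18 alternative settings in each genotype.

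Phosphofructokinase commits glucose to glycolysis. Its muscle subunit Pfkm (chr15:98092589-98132451) read 578, 755 and 574 CPM in WT Input and 937, 958 and 784 CPM in WT IP, and 499, 713 and 608 CPM in KO Input against 877, 955 and 906 CPM in KO IP. The IP libraries lay above the Input libraries in both genotypes, by 0.49 (SE 0.16, adjusted p = 0.0435) in WT and 0.59 (SE 0.17, adjusted p = 0.0150) in KO on the log2 scale. The platelet-type subunit Pfkp (chr13:6579768-6648777) read 32.4, 29.6 and 26.9 CPM in WT Input against 69.6, 78.8 and 66.9 CPM in WT IP, and 34.3, 15.4 and 45.5 CPM in KO Input against 70.0, 64.1 and 51.5 CPM in KO IP. Its difference of 1.26 (SE 0.31, adjusted p = 0.00695) in WT and 1.01 (SE 0.35, adjusted p = 0.0489) in KO rests on 295 counts in all. The opposite-strand gene Pitrm1, which overlaps Pfkp, had 125 counts, and the sources used here do not say whether counting used strand. The liver-type subunit Pfkl read 56.3 to 134 CPM in WT IP around 74.8 to 83.8 CPM in WT Input, and 114 to 136 CPM in KO IP above 62.5 to 83.8 CPM in KO Input, and passed in neither genotype (0.35 and 0.72 on the log2 scale, adjusted p = 0.408 and 0.0848).

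Hexokinase traps glucose in the cell as glucose 6-phosphate. Hk1, the form found in most tissues (chr10:62268855-62379908), read 87.2, 56.7 and 80.6 CPM in WT Input and 135, 108 and 119.7 CPM in WT IP, and 64.7, 69.3 and 102 CPM in KO Input against 121, 143 and 153 CPM in KO IP. The IP libraries were above the Input libraries, by 0.70 (SE 0.23, adjusted p = 0.0390) in WT and 0.86 (SE 0.24, adjusted p = 0.0155) in KO. The muscle form Hk2 read 277, 256 and 232 CPM in WT Input, 315, 295 and 243 CPM in WT IP, 251, 243 and 329.6 CPM in KO Input and 303, 303 and 331 CPM in KO IP. Its fractions overlapped, with log2 fold changes of 0.15 and 0.20 (adjusted p = 0.590 and 0.476).

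Several of these calls depend on single libraries. The WT call of Hk1 was lost without any 1 of the 6 WT libraries (adjusted p 0.0504 to 0.208), and its KO call without KO Input 1, KO Input 2 or KO IP 3 (0.0567 to 0.0957). For Pfkm the WT call was lost without WT Input 1, WT Input 3, WT IP 1 or WT IP 2 (0.129 to 0.193) and the KO call without KO Input 1 (0.108). The KO call of Pfkp was lost without KO Input 1, KO Input 2, KO IP 1 or KO IP 2 (0.0941 to 0.263). It passed under 7 of 18 alternative settings, and neither by DESeq2 (0.114) nor by limma-voom (0.0719). The WT call of Hk1 was also lost by DESeq2 (0.0885). The WT call of Pfkp held with each library left out in turn.

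Gapdh at its own locus read 2104, 2121 and 1585 CPM in WT Input against 785, 565 and 826 CPM in WT IP, and 1813, 1548 and 398 CPM in KO Input against 481, 958 and 803 CPM in KO IP. WT IP lay below WT Input (log2 fold change -1.42, SE 0.31, adjusted p = 0.00255), and in KO the groups overlapped (-0.76, SE 0.31, adjusted p = 0.101). With its 33 copies added, Gapdh read 3780, 3604 and 3265 CPM in WT Input and 3007, 2604 and 2843 CPM in WT IP, and the call was lost (-0.33, adjusted p = 0.252). The KO value was then -0.14 (adjusted p = 0.673).

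Tpi1, the triose phosphate isomerase, was the other gene of glycolysis that was lower, in KO: 952, 839.7 and 875 CPM in Input against 686, 559.9 and 715 CPM in IP (-0.45, SE 0.15, adjusted p = 0.0408). In WT it read 685, 787 and 695 CPM in Input and 659, 687 and 664 CPM in IP, which overlap (-0.11, adjusted p = 0.671). The KO call was lost without any 1 of the 6 KO libraries (adjusted p 0.0536 to 0.197), and it passed under 6 of 18 alternative settings.

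Pgk1 at its own locus did not pass (0.24 in WT and 0.48 in KO, adjusted p = 0.354 and 0.0723). With its 3 copies added it read 222, 454 and 346 CPM in WT Input, 523, 720.1 and 601 CPM in WT IP, 244, 235 and 432 CPM in KO Input and 742, 441 and 479 CPM in KO IP. The summed gene was higher in IP in both genotypes, by 0.85 (SE 0.23, adjusted p = 0.0146) and 0.89 (SE 0.25, adjusted p = 0.0143). Since Gm5537 was at 0 in 3 Input libraries, the sum moves with whether reads were counted at that copy, and which of the 2 values stands for the message was not tested.

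The remaining glycolytic genes passed in neither genotype. Gpi1, glucose phosphate isomerase, lay between -0.01 and 0.27, Eno3, the muscle enolase, between 0.08 and 0.41, and Pkm, the pyruvate kinase, between -0.05 and 0.40 on the log2 scale. Eno3 and Pkm in KO had all IP libraries above all Input libraries (adjusted p = 0.0649 and 0.0926). For Pkm the nearest pair was almost equal, with 868.6 CPM in KO IP 2 and 868.3 CPM in KO Input 1. Pgam1, the brain-type phosphoglycerate mutase, rests on few counts and read 27.4, 37.0 and 20.2 CPM in WT Input against 10.4, 8.57 and 10.6 CPM in WT IP. Its WT value of -1.51 (SE 0.54) had an adjusted p of 0.0627. With its 1 near copy added, which had counts in WT Input 2 alone, Pgam1 was lower in WT IP (-1.86, SE 0.54, adjusted p = 0.0214). Pgam2, the muscle mutase, read 1191, 1142 and 984 CPM in WT Input, 1030, 987 and 938 CPM in WT IP, 1009, 1109 and 841 CPM in KO Input and 1188, 882 and 1040 CPM in KO IP. It overlapped in both genotypes (-0.17 and 0.06), as did Eno1, the widespread enolase (-0.39 and 0.36), which read 93.7 to 132 CPM in WT Input, 68.1 to 114 CPM in WT IP, 45.5 to 100.2 CPM in KO Input and 78.5 to 101 CPM in KO IP. Slc2a4, the insulin-responsive transporter GLUT4, read 260.4 to 392 CPM over all 12 libraries and overlapped between fractions (-0.13 in WT and -0.26 in KO, adjusted p = 0.657 and 0.325).

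Lactate dehydrogenase interconverts pyruvate and lactate. Ldha (chr7:46841475-46855627), the muscle subunit, read 725, 703 and 739 CPM in WT Input against 1085, 1196 and 1079 CPM in WT IP, and 639.8, 666 and 591 CPM in KO Input against 1251, 989 and 1119 CPM in KO IP. Its IP libraries lay above the Input libraries by 0.63 (SE 0.15, adjusted p = 0.00391) in WT and 0.82 (SE 0.15, adjusted p = 0.000419) in KO. The heart subunit Ldhb read 1623, 1931 and 1663 CPM in WT Input against 1954, 2373 and 1986 CPM in WT IP, and 1447, 1652 and 1188 CPM in KO Input against 2518, 1954 and 2266 CPM in KO IP. Its IP libraries lay above its Input libraries in both genotypes, and only the KO difference passed (0.65, SE 0.17, adjusted p = 0.00775, against 0.27, SE 0.16, adjusted p = 0.282 in WT). Both calls of Ldha and the KO call of Ldhb held with each library left out in turn.

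At pyruvate oxidation, 2 of 8 tested genes were higher in WT and 3 in KO, and none was lower. Pdk1 (chr2:71873224-71903858), a kinase that inhibits pyruvate dehydrogenase, read 139.6, 121 and 70.5 CPM in WT Input against 173, 207 and 204 CPM in WT IP, and 76.2, 123 and 85.2 CPM in KO Input against 210.0, 196 and 194 CPM in KO IP. The fractions did not overlap in either genotype (0.79, SE 0.21, adjusted p = 0.0130 in WT and 1.06, SE 0.24, adjusted p = 0.00262 in KO), and the WT call was lost without WT Input 3 or WT IP 2 (0.101 and 0.0552). A second kinase, Pdk2, read 259, 279 and 289 CPM in WT Input, 327, 341 and 421 CPM in WT IP, 209, 258 and 165 CPM in KO Input and 278, 372 and 346 CPM in KO IP. All IP libraries were above all Input libraries, and only the KO difference passed (0.64, SE 0.19, adjusted p = 0.0213, against 0.40, SE 0.18, adjusted p = 0.136). That call was lost without KO Input 1, KO Input 3, KO IP 2 or KO IP 3 (0.0604 to 0.0870).

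Pdhx, which tethers the E3 subunit to the pyruvate dehydrogenase core, read 145, 138 and 111 CPM in WT Input against 235, 226 and 206 CPM in WT IP (0.75, SE 0.19, adjusted p = 0.00746, lost without WT Input 3 at 0.0537). In KO it read 217, 139 and 159 CPM in Input and 161, 158 and 158 CPM in IP, which overlap (-0.12, SE 0.20, adjusted p = 0.746). Dlat, the acetyltransferase core of the complex, read 354, 385 and 497 CPM in WT Input, 555, 584 and 551 CPM in WT IP, 343, 293 and 455 CPM in KO Input and 497, 549 and 524 CPM in KO IP. Its fractions did not overlap, and the KO difference passed (0.55, SE 0.17, adjusted p = 0.0334, against 0.46, SE 0.17, adjusted p = 0.0654 in WT). Without KO Input 1, KO Input 2, KO IP 2 or KO IP 3 the call was lost (0.0715 to 0.181). Pdha1 and Pdhb, the subunits of the E1 decarboxylase, Dld, the shared E3 dehydrogenase, and Mpc2, the partner of Mpc1, passed in neither genotype, with log2 fold changes from -0.30 (Mpc2 in KO) to 0.43 (Pdha1 in WT).

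In the TCA cycle 2 of 12 genes were higher in WT and 5 in KO, and Suclg1 was lower in both. Suclg1 (chr6:73248382-73276911), the alpha subunit shared by both succinyl-CoA ligases, read 879.9, 888 and 863 CPM in WT Input against 508, 451 and 481 CPM in WT IP, and 1089, 782 and 778 CPM in KO Input against 259, 552 and 510.3 CPM in KO IP. IP lay below Input in every library, with log2 fold changes of -0.87 (SE 0.20, adjusted p = 0.00372) in WT and -0.99 (SE 0.20, adjusted p = 0.00122) in KO, and both calls held with each library left out in turn. Its partner subunits did not pass: Sucla2 read 671, 749.7 and 709 CPM in WT Input, 857, 863 and 852 CPM in WT IP, 788, 689 and 881 CPM in KO Input and 821, 952 and 924 CPM in KO IP (0.27 and 0.20, adjusted p = 0.227 and 0.389). Suclg2 read 168 to 191 CPM in WT Input, 166 to 201 CPM in WT IP, 142 to 166 CPM in KO Input and 158 to 201 CPM in KO IP, and passed in neither genotype (0.06 and 0.17).

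The 2-oxoglutarate dehydrogenase complex was higher in IP at both of its own subunits on the list. Ogdh, its E1 subunit (chr11:6291633-6356642), read 1039, 1115 and 930.4 CPM in WT Input against 1457, 1727 and 1564 CPM in WT IP, and 887, 978 and 1205 CPM in KO Input against 1654, 1636 and 1788 CPM in KO IP. The differences were 0.62 (SE 0.15, adjusted p = 0.00723) in WT and 0.73 (SE 0.16, adjusted p = 0.00181) in KO, the WT one lost without WT Input 3 (0.0530). Dlst, its E2 subunit (chr12:85110833-85134845), read 376, 407 and 346 CPM in WT Input against 631, 533 and 484 CPM in WT IP, and 319.9, 369.8 and 250.0 CPM in KO Input against 590.4, 491 and 534 CPM in KO IP. It passed in both (0.54, SE 0.16, adjusted p = 0.0264 and 0.76, SE 0.17, adjusted p = 0.00303), with the WT call lost without WT Input 1, WT Input 2, WT Input 3, WT IP 1 or WT IP 2 (0.0550 to 0.140).

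Citrate synthase, Cs, which opens the cycle, read 1094, 1186 and 1011 CPM in WT Input against 1375, 1574 and 1349 CPM in WT IP, and 864, 878 and 835 CPM in KO Input against 1503, 1451 and 1572 CPM in KO IP. Its IP libraries were above its Input libraries in both genotypes, and the difference passed in KO (0.81, SE 0.15, adjusted p = 0.000387, against 0.38, SE 0.14, adjusted p = 0.0748 in WT). Idh2, the mitochondrial NADP-linked isocitrate dehydrogenase, read 1603, 1879 and 1619 CPM in WT Input, 1991, 2078 and 1951 CPM in WT IP, 1219, 1618 and 1580 CPM in KO Input and 2455, 2207 and 2403 CPM in KO IP. It also stood higher in every IP library and passed in KO (0.68, SE 0.16, adjusted p = 0.00325, against 0.24, SE 0.15, adjusted p = 0.322). Fh1, the fumarase, read 494, 478 and 467 CPM in WT Input, 565, 661 and 623 CPM in WT IP, 499, 489 and 369 CPM in KO Input and 819, 658 and 655 CPM in KO IP. It too passed in KO (0.64, SE 0.16, adjusted p = 0.00711, against 0.36, SE 0.16, adjusted p = 0.125), and the KO calls of Cs, Idh2 and Fh1 held with each library left out in turn. The NAD-linked isocitrate dehydrogenase genes Idh3a, Idh3b and Idh3g and the cytosolic Idh1 passed in neither genotype, with log2 fold changes between -0.30 and 0.05.

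In the malate-aspartate shuttle, Mdh1 (chr11:21556787-21572367), the cytosolic malate dehydrogenase, was higher in both genotypes. It read 2682, 3092 and 2573 CPM in WT Input against 3901, 4372 and 3733 CPM in WT IP, and 2555, 2746 and 2091 CPM in KO Input against 5031, 3471 and 4162 CPM in KO IP. The differences were 0.52 (SE 0.17, adjusted p = 0.0428) and 0.77 (SE 0.17, adjusted p = 0.00282), the WT one lost without any 1 of the 6 WT libraries (0.0605 to 0.162). Mdh2, its mitochondrial partner and a TCA cycle enzyme, read 1506, 1568 and 1582 CPM in WT Input, 1948, 1814 and 1648 CPM in WT IP, 1603, 1572 and 1404 CPM in KO Input and 2028, 1627 and 1873 CPM in KO IP. Every IP library lay above every Input library of its genotype, but neither difference passed (0.22 and 0.27, adjusted p = 0.355 and 0.237).

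Got2 at its own locus read 441, 412 and 363 CPM in WT Input against 471, 451 and 570.5 CPM in WT IP, and 282, 300.4 and 301 CPM in KO Input against 408, 624 and 553 CPM in KO IP. The KO difference passed (0.85, SE 0.18, adjusted p = 0.00161) and the WT one did not (0.29, SE 0.17, adjusted p = 0.267). With Gm10874 added the sum was 441, 412 and 681 CPM in WT Input, 905, 948 and 1042 CPM in WT IP, 559, 300.3 and 818 CPM in KO Input and 747, 1042 and 1005 CPM in KO IP, and it passed in both (0.93, adjusted p = 0.00718, and 0.76, adjusted p = 0.0264). Got1, the cytosolic form, read 805, 834 and 752 CPM in WT Input, 941, 1076 and 942 CPM in WT IP, 1036, 844 and 1148 CPM in KO Input and 1062, 960.2 and 1021 CPM in KO IP. Its fractions were apart in WT only, and neither difference passed (0.31 and 0.01, adjusted p = 0.183 and 0.975). Gys1, the muscle glycogen synthase, read 49.9 to 107 CPM in Input and 86.3 to 151 CPM in IP and passed in neither genotype (0.65 and 0.19, adjusted p = 0.116 and 0.714).

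Transcript length and some markers of other cells also differed in the same comparison, the markers in both directions. Fitted over abundant genes, the log2 fold change of IP over Input was -0.42 at 1 kb, -0.06 at 2 kb and 0.11 at 4 kb of transcript in WT, and -0.43, -0.07 and 0.11 in KO. With that trend removed, 8 of the 43 genes were higher and 2 lower in WT, 9 of these 10 being among the 12 called without it. In KO 17 were higher and 1 lower, 14 of them shared. Over all genes tested, 10.5% passed in WT and 12.2% in KO with the trend removed. Hk1 lost both calls, Pfkm and Pdk1 their WT calls, and Pfkp, Dlat and Tpi1 their KO calls. Endothelial markers (6 of 6 tested) summed to 743 to 898 CPM in the Input libraries and 525 to 595 CPM in the IP libraries. Of these 1 was lower in IP in WT and 2 in KO, and 2 had positive log2 fold changes in each genotype. Adipocyte markers (2 of 6 tested) summed to 1596 to 2835 CPM in Input and 1062 to 1619 CPM in IP, with Lep at 0 in KO Input and in both IP groups. Of the 2 tested, 1 was lower in WT and 2 in KO. Their log2 fold changes were unlike, at -3.35 and -0.53 in WT and -3.13 and -1.06 in KO. The list holds Fabp4, and its sum is not read as adipocyte content. Cardiomyocyte markers (7 of 8 tested) had 1 higher and 1 lower in WT and 3 higher in KO. Markers listed for skeletal muscle (3 of 6 tested) summed to 3245 to 5069 CPM in Input and 2908 to 4074 CPM in IP. Of these 1 was lower in each genotype, and Myh1 and Tnnt3 were at 0 in both IP groups. The list holds Acta1 and Ckm, so its sum is not read as RNA of skeletal muscle cells. Fibroblast markers (6 of 6 tested) summed to 1140 to 1847 CPM in Input and 1441 to 1941 CPM in IP. Of these 5 had positive log2 fold changes in each genotype (median of the 6 0.38 in WT and 0.34 in KO), and 1 was lower in KO. No macrophage or smooth muscle marker passed, and of erythroid markers (5 of 6 tested, 16154 to 202646 CPM) none passed. Of all genes tested, 5.37% were higher and 8.67% lower in IP in WT, and 6.64% and 9.78% in KO. The part of these cells in the differences was not tested.

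KO was compared with WT within each fraction to ask what loss of Rpl3l did to these messages. In Input 0 of the 43 genes passed the edgeR test, where 0.182% of all genes tested did (0.152% higher and 0.0303% lower in KO, 12 of 6596 genes), and 0 passed by DESeq2 or limma-voom. In IP 0 of 43 passed against 0.0910% of all genes (0.0303% higher and 0.0606% lower), again with 0 by either other tool. At an unadjusted p under 0.05 there were 7 of the 43 genes in Input and 2 in IP, against 469 and 343 of all 6596 genes. The median log2 fold change was -0.07 in Input, with 27 of 43 genes negative, and 0.03 in IP, with 19 negative. For all genes the medians were -0.01 and 0.00, with 3337 and 3296 of 6596 genes negative. In Input 3 genes had all KO libraries above all WT libraries and 6 had them below (6.17% and 6.20% of all genes), and in IP 1 and 3 (5.40% and 5.44%). SEs ran from 0.14 to 0.60 on the log2 scale.

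**Figure D4:**
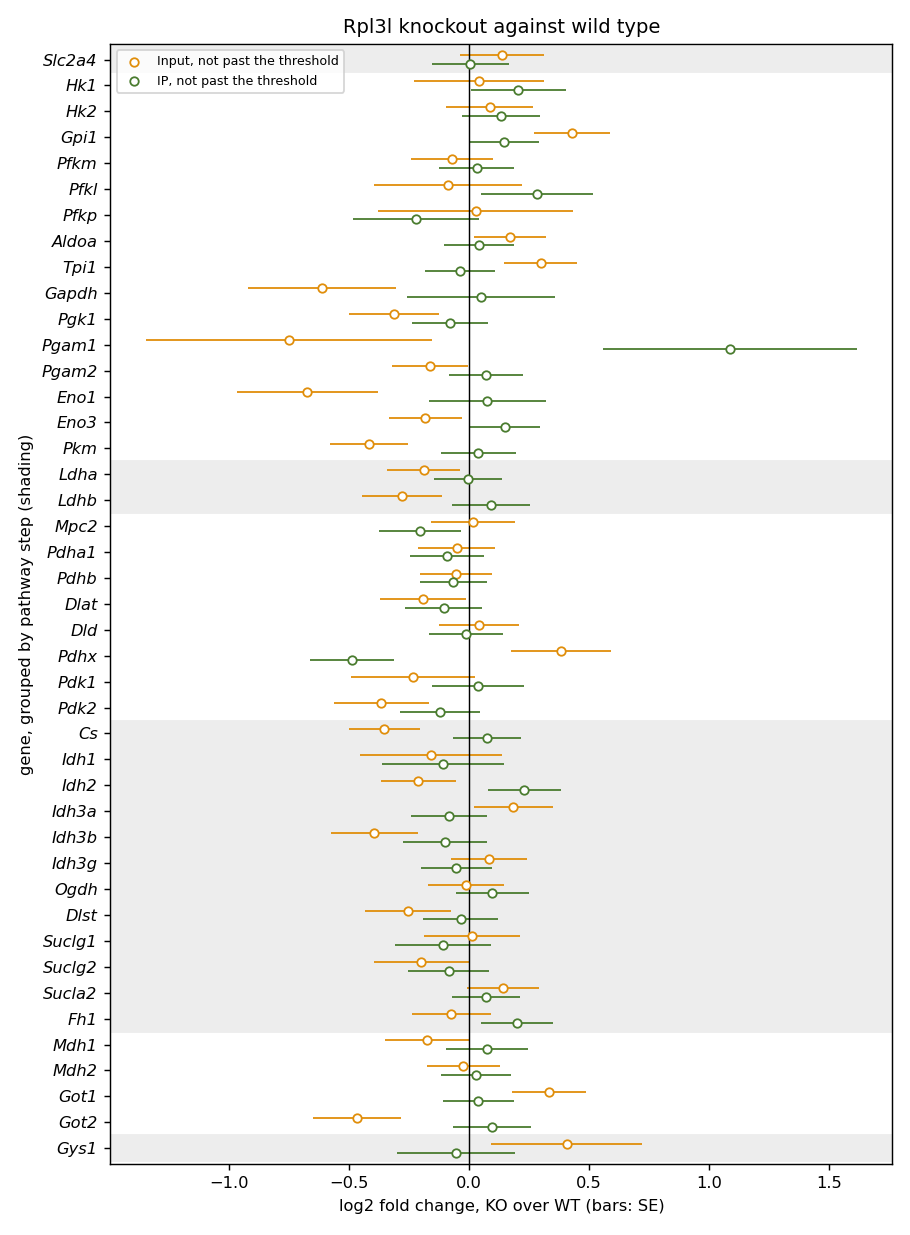
Log2 fold change of KO over WT for the 43 tested genes in Input (orange) and IP (green), with bars of 1 SE. All points are open because no gene reached an adjusted p under 0.05, most IP points lie near 0, and Pgam1, with few counts, has the longest bars.

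The gene with the smallest p in Input was Gpi1, with 277, 298 and 326 CPM in WT and 388, 404 and 420.5 CPM in KO. Its libraries do not overlap, and the log2 fold change was 0.43 (SE 0.16, adjusted p = 0.526). Pkm read 942, 1051 and 1011 CPM in WT Input and 868, 778 and 591 CPM in KO Input, also without overlap (-0.42, SE 0.16, adjusted p = 0.580). Got2, from the values above, differed by -0.47 (SE 0.18, adjusted p = 0.589) at its locus and by 0.12 (SE 0.24, adjusted p = 0.945) with Gm10874 added. Cs was 859 ± 21.9 CPM (SD, n = 3) in KO Input and 1097 ± 87.6 CPM in WT Input (-0.35 on the log2 scale, SE 0.15, adjusted p = 0.645). Eno1 (-0.67), Idh3b (-0.39) and Got1 (0.33) were the other genes with an unadjusted p under 0.05 in Input. Ldha, Pdk2 and Suclg2 also had all KO Input libraries below all WT Input libraries, and Tpi1 and Got1 had them above.

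In IP the smallest p was that of Pdhx, with 235, 226 and 206 CPM in WT and 161, 158 and 158 CPM in KO. The groups do not overlap, and the log2 fold change was -0.49 (SE 0.17, adjusted p = 0.827). Idh2 had all KO IP libraries above all WT IP libraries (0.23, SE 0.15, adjusted p = 0.968), and Mpc2 and Dlat had them below (-0.20 and -0.10). Pgam1 read 10.4, 8.57 and 10.6 CPM in WT IP and 9.33, 32.7 and 18.3 CPM in KO IP, which overlap (1.09, SE 0.53, adjusted p = 0.943).

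The genotype change of the IP to Input ratio, the interaction, was KO minus WT of the log2 fold changes described above. It passed for 0 of 43 genes by edgeR, DESeq2 or limma-voom, against 0.0910% of all genes by edgeR (0.0303% higher and 0.0606% lower). An unadjusted p under 0.05 by edgeR was reached by 4 of the 43 genes and by 463 of all 6596. The median was 0.11, against 0.01 for all genes. Pdhx came first, with a ratio of IP to Input that was 0.75 in WT and -0.12 in KO on the log2 scale, a difference of -0.87 (SE 0.27, unadjusted p = 0.00386 by edgeR, adjusted p = 0.425). The others were Pgam1 (1.84, SE 0.79), Got2 (0.56, SE 0.25, or -0.16 with Gm10874 added) and Cs (0.43, SE 0.21). These interactions share their 12 libraries with the comparisons above and add no independent evidence.

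Several steps have 2 or 3 isozymes, and the share of each in its family was computed from counts in every library. In 44 comparisons of 11 families an exact two-sided permutation test cannot go below p = 0.10 with 3 libraries against 3. That p was reached 11 times, and the smallest adjusted p over the 44 was 0.4, so none passed. Groups that do not differ lie apart with a chance of 0.10 in each comparison, and the 44 share their libraries. The same was not counted for other gene pairs, so shares without overlap below are not read as results about these isozymes. The muscle and heart forms held most counts in every group: Slc2a4 held 98.6 to 100% of the counts of both transporters, Pgam2 96.4 to 99.3% of the mutases, Eno3 89.4 to 95% of the enolases and Pfkm 80.9 to 88.9% of the phosphofructokinases. Slc2a1 had almost no counts, and the count files list Actc1, Hif1a and Txnip at 0 in all 12 libraries. Whether such low counts stand for low levels was not tested.

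Hk2 held 77.4 ± 4.02% (SD, n = 3) of hexokinase counts in WT Input, 77.9 ± 1.60% in KO Input, 70.1 ± 3.10% in WT IP and 69.3 ± 1.87% in KO IP. Its IP libraries (67.0 to 73.2%) lay below its Input libraries (74.2 to 81.9%) in both genotypes. Ldhb held 70.6 ± 2.39% of lactate dehydrogenase counts in WT Input and 65.2 ± 1.15% in WT IP, which do not overlap, and 69.1 ± 2.25% in KO Input and 66.7 ± 0.284% in KO IP, which do. The mitochondrial Mdh2 held 35.9 ± 2.21% of malate dehydrogenase counts in WT Input, 38.4 ± 1.89% in KO Input, 31.1 ± 2.03% in WT IP and 30.6 ± 1.65% in KO IP, again lower in every IP library than in every Input library of its genotype. Idh2 held 95.9 ± 1.00%, 95.7 ± 0.808%, 97.2 ± 0.234% and 97.7 ± 0.590% of isocitrate counts with Idh1 in the same order of groups, and its IP libraries lay above its Input libraries in both genotypes.

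In 1 family, that of Got2, the share did not overlap between genotypes. Got2 held 35.4, 33.1 and 32.5% of aminotransferase counts in WT Input and 21.4, 26.3 and 20.8% in KO Input, without overlap, and 33.5 ± 4.10% in WT IP and 34.1 ± 5.88% in KO IP (exact permutation p = 0.1 in Input, adjusted p = 0.4). That share is of the annotated locus, without Gm10874. Pdk2 held 71.7 ± 7.87% of the counts of Pdk1 and Pdk2 in WT Input, 69.0 ± 3.88% in KO Input, 65.0 ± 2.59% in WT IP and 62.1 ± 4.55% in KO IP. The ATP-forming ligase subunit Sucla2 held 79.7 ± 1.75%, 83.3 ± 2.74%, 82.1 ± 1.5% and 83.6 ± 1.92% of its counts with Suclg2, with overlap in all comparisons.

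A further 54 genes of the same pathways were listed as a background to the 45, and 35 passed the filter on low counts. In KO against WT 0 of 35 passed in Input, in IP or as an interaction by edgeR, and 0 by DESeq2 or limma-voom. At an unadjusted p under 0.05 by edgeR there were 5, 3 and 5 of the 35, against 469, 343 and 463 of all 6596 genes. In IP against Input 5 were higher and 2 lower in WT, and 4 were higher and 2 lower in KO. These 7 and 6 of 35 genes are 20% and 17.1%, near the 14.0% and 16.4% of all genes tested (5.37% higher and 8.67% lower in WT, 6.64% and 9.78% in KO).

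Pdk4, the kinase of pyruvate dehydrogenase that fasting and fatty acids induce, came nearest to a genotype difference. It read 857, 1073 and 839.7 CPM in WT Input and 194, 435 and 579.6 CPM in KO Input, and 449, 599.6 and 595 CPM in WT IP against 194, 447 and 572 CPM in KO IP. All KO Input libraries lay below all WT Input libraries. The log2 fold change was -1.23 (SE 0.30, adjusted p = 0.110), and in IP the groups overlapped (-0.42, SE 0.28, adjusted p = 0.968). The Input difference passed under 2 of 18 alternative settings, without a filter on low counts and with the replicate number as a block (edgeR adjusted p = 6.61e-09 and 0.00756). It did not pass under the other 16, which include each library left out in turn (adjusted p up to 0.811). The labels do not say whether replicate numbers pair the libraries, so the value with the block is only another setting.

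Of glycogen genes, Pygm, the muscle glycogen phosphorylase, was higher in IP in both genotypes. It read 494, 520.3 and 487 CPM in WT Input against 711, 708 and 657 CPM in WT IP (0.47, SE 0.14, adjusted p = 0.0295) and 407, 358 and 455 CPM in KO Input against 726, 759 and 709.7 CPM in KO IP (0.85, SE 0.15, adjusted p = 0.000272). Its WT call was lost without WT Input 1, WT Input 2, WT Input 3, WT IP 1 or WT IP 2 (0.0750 to 0.112). Ugp2, which makes UDP-glucose for glycogen, was higher in WT only (0.67, SE 0.17, adjusted p = 0.010, lost without WT Input 2, WT Input 3, WT IP 1 or WT IP 3 at 0.0537 to 0.0577). Pdp2, a phosphatase that reactivates pyruvate dehydrogenase, read 13.4 to 54.3 CPM in WT Input and 65.1 to 92.5 CPM in WT IP, and 11.4 to 41.9 CPM in KO Input and 61.5 to 88.7 CPM in KO IP. It passed in both (1.17, SE 0.36, adjusted p = 0.0298, lost without WT Input 1, WT Input 3 or WT IP 2 at 0.121 to 0.150, and 1.20, SE 0.41, adjusted p = 0.0440, lost without any KO library but KO IP 2 at 0.0545 to 0.160). By DESeq2 and limma-voom the KO call was lost as well (0.0560 and 0.135).

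Sdha, the catalytic subunit of succinate dehydrogenase, read 879.7, 948 and 977 CPM in KO Input against 1407, 1342 and 1414 CPM in KO IP (0.57, SE 0.14, adjusted p = 0.00672) and did not pass in WT (0.29, adjusted p = 0.183). Sdhb, its iron-sulphur subunit, read 1879, 2030 and 1491 CPM in WT Input against 1295, 1288 and 1280 CPM in WT IP (-0.48, SE 0.16, adjusted p = 0.0393) and did not pass in KO (-0.42, adjusted p = 0.0717). The WT call of Sdhb was lost without any 1 WT library but WT Input 3 (0.105 to 0.179). Bsg, the chaperone of lactate transporters, read 1439, 1456 and 1369 CPM in KO Input against 933, 776 and 829 CPM in KO IP (-0.75, SE 0.15, adjusted p = 0.000998), and the call held with each library left out in turn.

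The other calls rest on low levels. Pcx, pyruvate carboxylase, read 42.4, 24.7 and 67.2 CPM in WT Input against 4.44, 8.57 and 3.52 CPM in WT IP (-2.93, SE 0.69, adjusted p = 0.00446). Its KO Input libraries were uneven, at 3.81, 73.2 and 5.68 CPM. Bpgm, the bisphosphoglycerate mutase of red cells, read 52.3, 27.1 and 101 CPM in WT Input and 135, 442 and 63.4 CPM in WT IP, which overlap although the difference passed (1.89, SE 0.51, adjusted p = 0.0127). WT IP 2, with 442 CPM, is also the library with the most globin counts (17.2%), and without it the value was 0.80 (adjusted p = 0.265). The call was lost without WT Input 1 or WT Input 2 as well (0.0662 and 0.0910), and by DESeq2 and limma-voom (0.0982 and 0.0572).

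Gpt2, the mitochondrial alanine aminotransferase, was higher in IP in WT, with 17.4, 19.7 and 23.5 CPM in Input and 34, 42.8 and 54.6 CPM in IP (1.11, SE 0.37, adjusted p = 0.0460). In KO it read 38.1, 61.6 and 68.2 CPM in Input and 30.3, 20.9 and 38.2 CPM in IP, which overlap (-0.90, adjusted p = 0.0921), and its interaction was -2.01 (SE 0.52, adjusted p = 0.247). Gpd1l, related to glycerol 3-phosphate dehydrogenase, was higher in IP in KO, where 26.7, 50.1 and 5.68 CPM in Input and 109.7, 49.7 and 71.5 CPM in IP overlap (1.33, SE 0.43, adjusted p = 0.0371). Pdp1, the other phosphatase of pyruvate dehydrogenase, was lower in KO (-0.99, SE 0.33, adjusted p = 0.0435). Gpt2 lost its call without any 1 WT library but WT IP 1 (0.0789 to 0.164), Gpd1l without KO Input 1, KO Input 3, KO IP 1 or KO IP 3 (0.0598 to 0.143) and Pdp1 without KO Input 2, KO Input 3, KO IP 1 or KO IP 2 (0.0660 to 0.258). DESeq2 and limma-voom did not call Gpt2 in WT (0.108 and 0.0921) or Pdp1 in KO (0.0770 and 0.0549), and limma-voom did not call Gpd1l in KO (0.165).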

How the data were processed

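Counts: the authors deposited 1 table of whole-number counts per gene for each of the 12 libraries, and the submitters' processing notes name minimap2 2.14, DESeq2 1.34.0 and GRCm38. The sources used here give neither the counting rule nor the strand setting. The 45 members, the 54 other pathway genes and the marker lists were chosen with earlier results of these data known. Genes passing filterByExpr (minimum count 10, minimum total 15; 6596 genes) were fitted with edgeR 4.0.16 (R 4.3.3, limma 3.58.1): TMM factors, 1 mean per group over all 12 libraries, quasi-likelihood tests of 5 contrasts, and Benjamini-Hochberg adjustment within each contrast at 0.05. The SE is the log2 fold change divided by the square root of F. The fit was run on simulated data in which all genes had 1 common spread between replicates, so that run does not give the error rates in these libraries. Values in every library are given for isozymes, for members past 0.05 in a contrast (at most 10 a direction by size), for the 3 smallest p a contrast, for other pathway genes past 0.05 (at most 6 a contrast) and for Pdk4, some as ranges; Gpt2 in WT was added after its values were seen. DESeq2 1.42.0 and limma-voom were alternatives, and isozyme shares were compared by exact permutation (scipy 1.17.1). Near copies were found with minimap2 2.31 (95% identity over at least 50% of the copy). Replicates differed by more than sampling noise (chi-square per degree of freedom 2.32 to 10.8).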

Additional observations from a re-analysis of the deposited data

How the results depend on the processing

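Each comparison was repeated under 18 other settings (23 for the interaction). The count of members that differed between genotypes stayed at 0 in IP and as an interaction, and in Input it was 1 without a filter on low counts (Gapdh, lower in KO). With that setting 1 other pathway gene passed in Input (Pdk4) and 1 in IP (Bpgm), against 0.464% and 0.331% of all genes. For IP against Input, libraries thinned to the smallest total left 2 of 42 members in WT and 11 of 42 in KO. They left 2 and 3 of 29 other pathway genes, where fewer reads were tested. With thinning, 6.5% of all genes passed in WT and 7.82% in KO. The members' share was then below that of all genes in WT and above it in KO. Leaving out 1 library at a time gave 7 to 10 members in WT and 12 to 19 in KO, and 2 to 6 and 4 to 5 other pathway genes. The share of all genes was then 8.46 to 9.62% in WT and 10.4 to 14.3% in KO. With the length trend removed 4 of 35 other pathway genes passed in WT, against 10.5% of all genes. Adding near copies to their members was a setting chosen after seeing the data. It gave 14 members in WT (11 shared) and 19 in KO (18 shared), against 14.1% and 16.4% of all genes.

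Same-numbered libraries did not deviate together (correlations -0.115 to 0.0423, own number best in 0 of 18 cases), so the labels' numbers were taken as names. Only Input and IP libraries of the same genotype could share a heart, and with 3 libraries a group such correlations cannot exclude pairing. With the replicate block 11 members in WT and 16 in KO differed between IP and Input, and 1 other pathway gene (Pdk4) between genotypes in Input. Values that changed sign were Hk1 in WT with thinned libraries (-0.027), Got2 with its near copy added (KO against WT in Input 0.12, interaction -0.16), and Pdk4 for IP against Input in KO, which was -0.016 with the length trend removed and -0.29 to 0.38 with a library left out, negative without KO Input 1, KO IP 2 (-0.0055) or KO IP 3 (-0.26); the cause was not tested. Under library totals the median of all genes shifted by over 0.1 in IP (0.12 for KO against WT, 0.15 for IP against Input in KO), and the members' medians were 0.15 and 0.51. Of 44 isozyme shares, those without overlap numbered 11 per kilobase. They numbered 11 to 16 with a library left out, where fewer libraries lie apart more easily.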
